A study of Mus musculus with 59 samples.

Results

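The genes described here encode secreted lipid carriers and proteins linked to amyloid. They are Apoe, Clu, Cst3, Itm2b, App and Aplp1, and they were taken by symbol as 6 of the 20689 genes in a table of single-cell RNA-seq. It covers 59 mouse cells labelled as chemical-induced neurons at 12 weeks, from work on reprogramming astrocytes with chemicals in vivo. Single somata were pulled out with patch pipettes in vivo and lysed, per the labels' protocol. The labels give 1 group and name no animal, genotype, strain or chemical, which leaves 1 sample with no comparison between groups. Native neurons, astrocytes and untreated cells were not analysed here. The set was chosen by symbol with FPKM levels in these same cells in view, since Apoe, Cst3 and Itm2b were known to be among the most abundant transcripts, so levels and correlations below are descriptions with no test.

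Apolipoprotein E (from Apoe) and clusterin (from Clu) are carriers of cholesterol and other lipids outside cells, and in the brain both are known chiefly as astrocyte products, with Apoe also rising in activated microglia. Cystatin C, from Cst3, is a secreted inhibitor of cysteine cathepsins. App encodes the amyloid precursor protein, a membrane protein that beta- and gamma-secretases cut to release amyloid beta. Aplp1 encodes a brain-enriched relative of it that lacks the amyloid beta stretch, and Itm2b encodes BRI2, a membrane protein cut by furin whose human mutants cause familial British and Danish dementia.

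Levels are FPKM, fragments scaled to exon length and to sequencing depth. Comparing levels of different genes therefore rests on the exon length used for each. Detection means 1 FPKM or above. Intervals on detection shares are exact Clopper-Pearson 95% limits for the number of cells alone. Log2 values are log2(FPKM + 1), a scale that understates differences between low genes. Depth, estimated from the spacing of low values, had a median of 912974 fragments per cell (29042 to 2950370), and 475 to 10310 genes were detected per cell. Neuronal transcripts were present in most cells, with at least 50% of 21 neuronal marker genes detected in 47 cells, from all 21 in 17 cells to 0 in cell 53. Glial markers accompanied them. For 11 oligodendrocyte genes 45 cells reached that 50%, for 13 microglia genes 31 cells and for 16 astrocyte genes 20 cells. Endothelial and mural markers were near 0, with none of 7 detected in 41 cells. Whether glial transcripts came from the labelled cell or from neighbouring material was not tested.

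All 6 genes were widely detected, and 41 of 59 cells contained every one of them. Each was detected in at least 50% of cells, which was true of 11.7% of all 20689 genes. Cst3 and Itm2b were detected in 58 cells each (98.3%, interval 90.9 to 99.96%), App in 56 (94.9%, 85.9 to 98.9%), and Apoe and Aplp1 in 55 each (93.2%, 83.5 to 98.1%). Clu was the exception within the set, detected in 45 cells (76.3%, 63.4 to 86.4%) and at exactly 0 in 12. The 6 genes together took a median of 1.16% of the summed gene FPKM of a cell, with a range of 0.0164 to 3.71%.

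By median level the order was Apoe, Cst3, Itm2b, App, Aplp1 and Clu. Apoe had a median of 1244 FPKM (quartiles 582 and 2909, highest 16237 in cell 36), the 5th highest of 20656 genes ranked without mitochondrial genes. Cst3 followed at 782 FPKM (quartiles 329 and 2679, highest 9743 in cell 15) and Itm2b at 678 FPKM (quartiles 357 and 1267, highest 2419 in cell 38). Both amyloid precursor family genes lay lower and close together in FPKM. App had a median of 209 FPKM (quartiles 70.7 and 471, highest 1303 in cell 4) and Aplp1 a median of 187 FPKM (quartiles 62.4 and 838, highest 3946 in cell 19). Clu was lowest at 42.0 FPKM (quartiles 3.12 and 196, highest 1102 in cell 46), a median that corresponded to 74.0 estimated fragments. The order differed in median estimated fragments, at 2012 for Apoe, 1982 for App, 1661 for Itm2b, 628 for Cst3 and 472 for Aplp1. The annotated exon length of App was 12996 bases, against 1266 to 3437 for the other 5 genes. These fragment values were computed from FPKM, estimated depth and the annotated lengths, so they are no separate count. App's place in either order rests on its exon length, and the annotation release behind the deposited FPKM was not given.

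Neighbours in this order mostly overlapped within cells. Apoe exceeded Cst3 in 35 cells, by a median of 0.32 on the log2 scale against an SD of 2.41 over cells. Cst3 exceeded Itm2b in 37 cells (median difference 0.57, SD 3.14) and Itm2b exceeded App in 48 (1.21, SD 3.09). For App and Aplp1 the within-cell order in FPKM went against the medians, since Aplp1 was the higher gene in 33 cells and App in 26. Aplp1 exceeded Clu in 38 cells (1.70, SD 4.54). In no step was the median difference larger than the SD over cells. The highest of the 6 genes was Apoe in 28 cells, Cst3 in 13, Aplp1 in 10, Itm2b in 5, App in 3 and Clu in none.

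**Figure D1:**
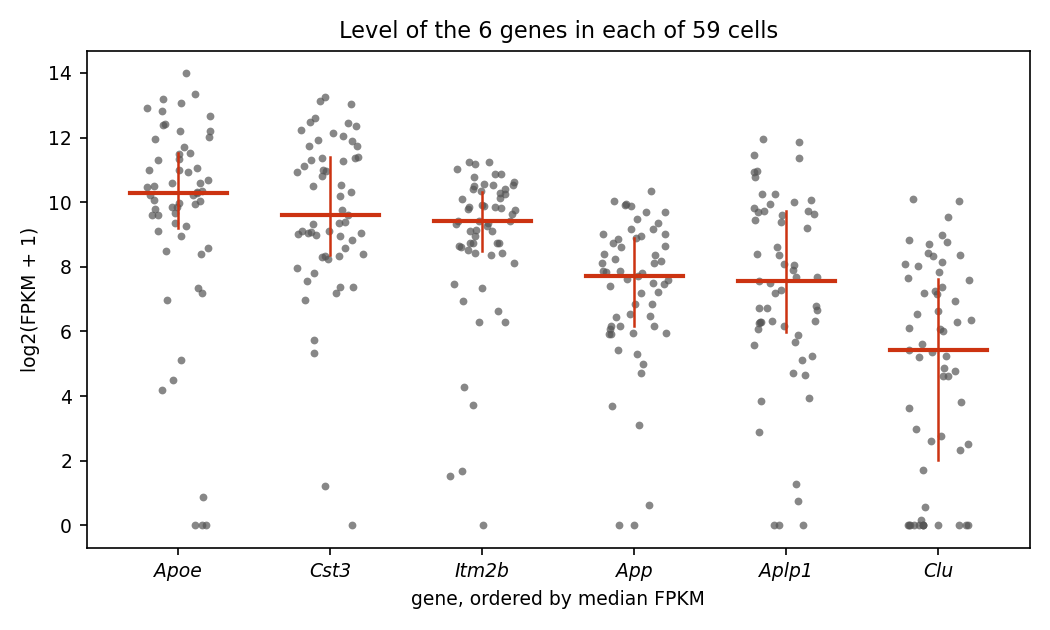
Level of each gene in 59 cells as log2(FPKM + 1), 1 point per cell, with the median as a horizontal red line and the quartiles as a vertical one; points are spread sideways only for visibility. The order runs from a median of 1244 FPKM for Apoe to 42.0 FPKM for Clu, and 12 cells sit at 0 for Clu.

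The genes differed in how evenly they were distributed over cells. The quartiles of Itm2b lay 3.54-fold apart, those of Apoe 5.00-fold, App 6.65-fold, Cst3 8.15-fold, Aplp1 13.4-fold and Clu 62.7-fold. Spread was also set against genes of like level, as the SD of log2 values minus a running median over genes of similar mean. The 8042 genes that 12 or more cells contained served as the background. App (SD 2.30) lay 0.51 below that trend, higher than only 4.38% of genes in excess SD, and Itm2b (SD 2.38) lay 0.40 below. Both were among the more even genes by this measure with a pseudocount of 1. With a pseudocount of 10 their values lay 0.16 and 0.01 below the trend. Apoe (SD 3.25, 0.48 above the trend, 94.6th percentile) and Clu (SD 3.31, 0.37 above, 90.8th percentile) were among the more variable ones. By its quartiles, however, Apoe was more even than App, and 3 cells read 0 for Apoe. Its excess ran from 0.28 with a pseudocount of 0.1 to 1.03 in the 46 cells with at least 2000 genes. Cst3 (0.22 below) and Aplp1 (0.21 above) lay nearer the trend, and their sign changed with the pseudocount.

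Each gene was next set against marker lists of 4 brain cell types, none of which contains any of the 6 genes. The measure was Spearman's correlation over the 59 cells with the mean log2 level of the list. These cells share 1 group, and genes per cell moved with the neuronal, astrocyte, microglia and oligodendrocyte lists (rho = 0.54, 0.52, 0.48 and 0.26), so every value is read against the median over the same 8042 genes. That median was 0.30 for the neuronal, 0.24 for the astrocyte, 0.20 for the microglia and 0.10 for the oligodendrocyte list. A correlation of 0.4 or more was reached by 29.8%, 8.99%, 8.06% and 7.85% of genes for the same lists. The 6 genes divided by the glial list that each followed most. Apoe and Cst3 had their highest value with microglia genes, Clu with astrocyte genes, and Itm2b, App and Aplp1 with oligodendrocyte genes. None followed the neuronal list most.

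**Figure D2:**
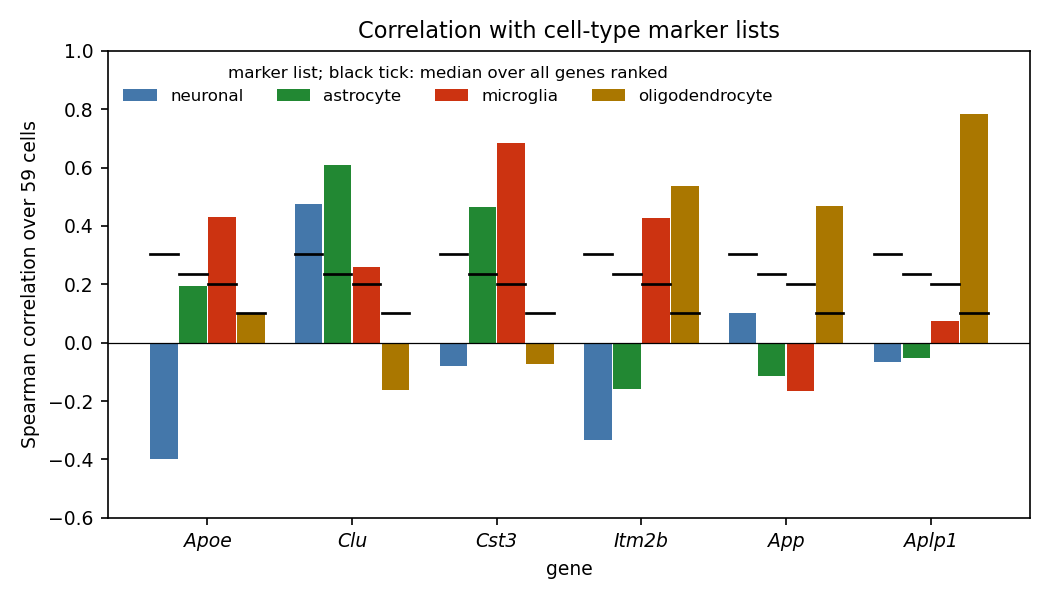
Spearman correlation over 59 cells (y axis) of each gene with the mean level of 4 marker lists (coloured bars), with black ticks at the median over 8042 genes for the same list. Aplp1 reaches 0.78 with the oligodendrocyte list and Cst3 0.69 with the microglia list, while Apoe lies at -0.40 for the neuronal list.

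Cst3 followed the microglia genes most closely of the 6. Its correlation with the list was 0.69, the 33rd highest of 8042 genes, and all 13 markers correlated with it, at 0.52 to 0.73. C1qb (a complement C1q subunit) was its nearest gene of all at 0.73, followed by Fcer1g (an Fc receptor signalling chain) at 0.71, Ly86 (a partner of a Toll-like receptor relative) at 0.67, the cathepsin gene Ctss at 0.67 and Apoe itself at 0.67. In the 10 cells with all 13 microglia genes detected, Cst3 ranged from 1167 to 9743 FPKM with a median of 5457. In the 5 cells with none of them (cells 11, 20, 44, 53 and 57) it read 523, 0, 669, 335 and 52.5 FPKM. Cst3 was thus present in 4 of the 5 cells without microglia markers. The 2 sets of cells also differed in genes detected, at 3152 to 7837 with all markers and 519 to 4149 with none. How many other genes differ between these sets in the same way was not counted. The astrocyte list also correlated with Cst3 (rho = 0.46, 96.7th percentile), and that list itself correlated with the microglia list at 0.38. Given the number of genes detected, the astrocyte value for Cst3 was 0.45 (99.5th percentile), near the 0.49 (99.7th percentile) of Clu. With the neuronal list Cst3 stood at -0.08, below the median gene (4.66th percentile), and at -0.21 (15.2nd percentile) given the number of genes detected.

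Apoe showed a looser relation to the same list and an opposite one to neuronal genes. Its correlation was 0.43 with the microglia list (percentile 94.3) and 0.19 with the astrocyte list, below the median gene. Given the number of genes detected, the astrocyte value was 0.26 (percentile 95.3), so its place among genes turned with that setting. With the neuronal list it was -0.40, a value that only 15 of 8042 genes undercut. Given the number of genes detected, the neuronal value was -0.44 (percentile 2.21). Of 21 neuronal markers, 0 correlated above 0 with Apoe. Its nearest genes were Cst3 (0.67), Lgals3bp (a secreted galectin ligand, 0.55), Cd63 (a lysosomal tetraspanin, 0.55), C1qb (0.52) and Leprot (an endosomal membrane protein, 0.50). The median gene correlated with Apoe at -0.06.

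High Apoe was seen in cells of unlike marker content. The 5 highest cells were cell 36 (16237 FPKM), cell 21 (10439), cell 28 (9423), cell 27 (8577) and cell 40 (7742). Of the microglia markers these cells had 8, 13, 13, 1 and 9 detected, and of the astrocyte markers 0, 6, 6, 0 and 0. Cell 47 (7275 FPKM), in contrast, had all 16 astrocyte and all 21 neuronal markers with 6 microglia markers, and cell 22 (5351 FPKM) had 15 astrocyte and 2 microglia markers. Among the 5 cells without any microglia marker, Apoe read 0, 17.4, 1952, 1556 and 161 FPKM. Cells 27, 36 and 40 were among the 4 of 59 cells in which no astrocyte marker was detected. Every cell named here as high in Apoe had 1 or more microglia markers, but only 5 of the 59 cells had none. Cells 27 and 36 had few genes detected (475, the lowest of the 59 cells, and 1139), which limits their marker counts. The 3 cells with Apoe at 0 (cells 11, 39 and 61) had 19, 20 and 17 neuronal markers and 0, 3 and 2 microglia markers detected, at 2101 to 6168 genes per cell.

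Apoe and Cst3 varied together more than any other of the 15 pairs (rho = 0.67, range 0.65 to 0.71 when each cell was left out in turn), and each was among the 5 nearest genes of the other. The region around their start sites is shown because these 2 genes varied together. Sequences are from RefSeq on GRCm38.p6, run from 250 bases before to 50 bases after the start and are written in the direction of transcription. Capitals mark GAGGAA, the core of sites bound by the myeloid factor PU.1, and GGGCGG, the GC box, each on either strand. The motifs do not overlap one another.
Apoe, chr7:19699139-19699438, minus strand: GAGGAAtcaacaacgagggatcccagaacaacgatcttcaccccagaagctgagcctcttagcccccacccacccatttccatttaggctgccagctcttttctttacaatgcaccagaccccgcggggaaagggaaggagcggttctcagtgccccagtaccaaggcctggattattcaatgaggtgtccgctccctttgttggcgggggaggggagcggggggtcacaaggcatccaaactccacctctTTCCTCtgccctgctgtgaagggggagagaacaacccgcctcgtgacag
Cst3, chr2:148875463-148875762, minus strand: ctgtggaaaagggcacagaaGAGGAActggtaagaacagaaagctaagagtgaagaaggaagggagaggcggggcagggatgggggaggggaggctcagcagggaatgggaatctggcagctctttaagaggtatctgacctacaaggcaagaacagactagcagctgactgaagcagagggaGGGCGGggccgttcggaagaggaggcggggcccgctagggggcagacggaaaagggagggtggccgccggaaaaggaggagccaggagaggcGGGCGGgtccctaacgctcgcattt
The Apoe window, 1 of 3 entries for this gene and the one that begins at the annotated gene start, held GAGGAA 2 times and GGGCGG 0 times, and its GC content was 57.7%. The Cst3 window held GAGGAA 1 time and GGGCGG 2 times at a GC content of 60.3%. Of 32851 promoter windows of this length, 28.3% held GAGGAA and 35.7% held GGGCGG on either strand, with a median GC content of 52.7%. TATAAA was in neither printed window and in 13.6% of all. The Apoe entries not printed differed, as 1 held TATAAA 2 times and GAGGAA 0 times, and 1 held GAGGAA 1 time and TATAAA 0 times. Such matches describe letters and are not shown to be bound. Apoe lies on chromosome 7 (19696109 to 19699188) and Cst3 on chromosome 2 (148871722 to 148875692), both on the minus strand, and no other annotated gene overlaps either.

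Clu was the gene that followed astrocyte transcripts. Its correlation with the astrocyte list was 0.61, the 20th highest of 8042 genes, and all 16 markers correlated above 0 with it, led by Aldoc (an astrocyte-enriched aldolase) at 0.59, the connexin gene Gjb6 at 0.55 and the water channel gene Aqp4 at 0.53. Gfap, the astrocyte intermediate filament gene, stood at 0.41 and Aldh1l1 lowest at 0.07. In the 20 cells with at least 50% of the astrocyte markers, Clu ranged from 0 to 1102 FPKM with a median of 230. In the other 39 cells it ranged from 0 to 504 FPKM with a median of 13.1. The ranges overlapped. Of the 4 cells without any astrocyte marker (cells 1, 27, 36 and 40), Clu was at 0 in 3 and at 63.5 FPKM in cell 40.

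Clu was also higher where neuronal genes were higher, but so was much of the transcriptome. Its correlation of 0.48 with the neuronal list was the 82.6th percentile, and 20 of 21 neuronal markers correlated above 0 with it, from -0.09 for Elavl3 to 0.49 for Celf4. Clu rose with the number of genes detected (rho = 0.45), and given that number its correlation fell to 0.49 with the astrocyte and 0.31 with the neuronal list. The 5 nearest genes were Scg3 (a secretory granule protein, 0.68), Tspan7 (a tetraspanin, 0.67), Rnf41 (a ubiquitin ligase, 0.61), Habp4 (0.60) and Armcx3 (0.59). With oligodendrocyte genes it went the other way (rho = -0.16, 5.45th percentile). Clu, on the plus strand of chromosome 14 (65968483 to 65981547), had no entry in the promoter table.

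The 2 lipid carriers were only weakly related. Apoe and Clu correlated at 0.21, Apoe was the higher in 53 cells and Clu in 5, and the 12 cells without Clu included cell 36, which had the highest Apoe. Among the 5 cells in which Clu exceeded Apoe were cell 12 (190 against 33.4 FPKM), cell 61 (227 against 0) and cell 13 (151 against 125). Cells 12 and 13 had all 21 neuronal markers and cell 61 had 17 of them. These 3 cells were chosen after their values were seen.

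**Figure D3:**
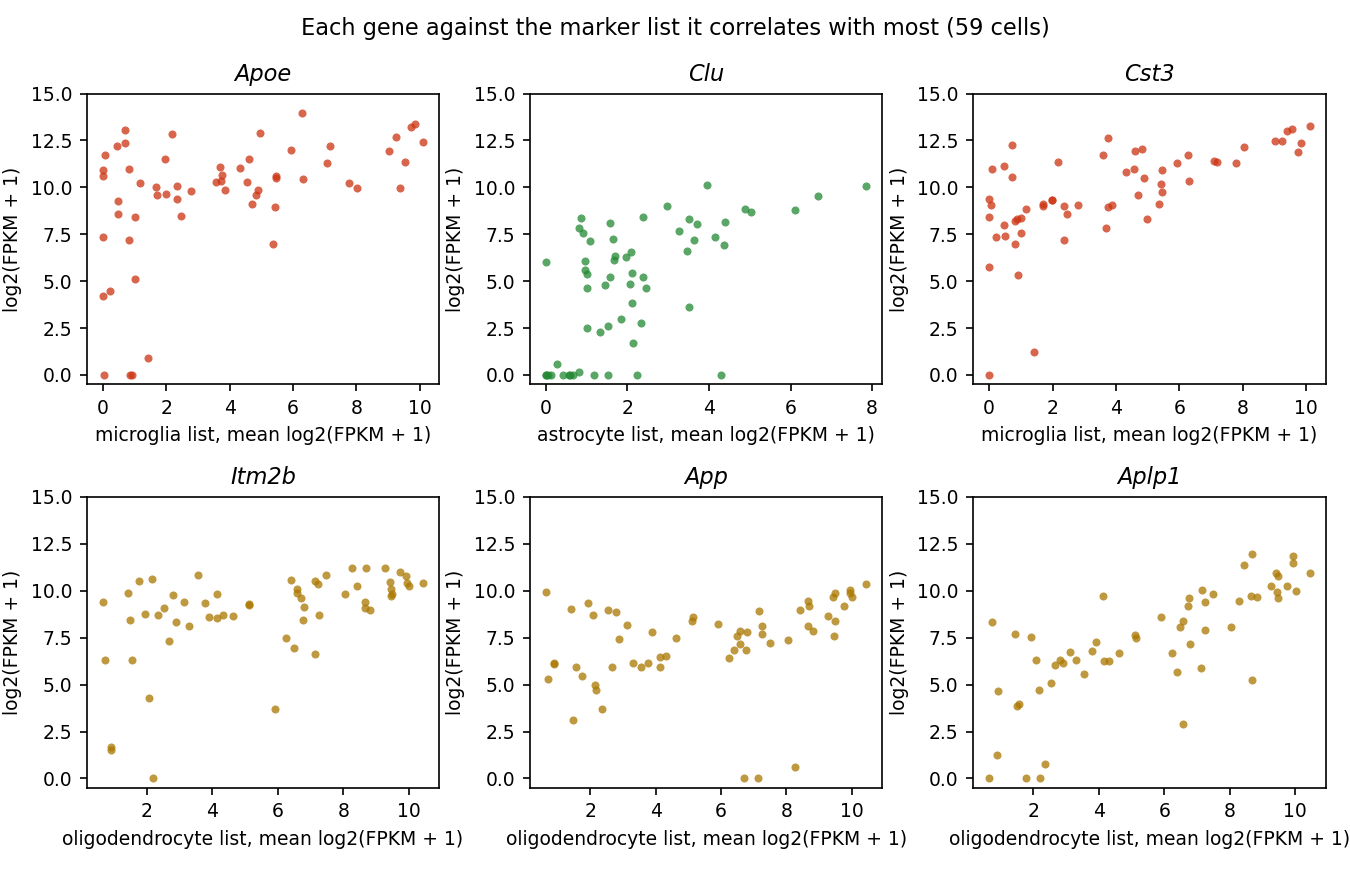
Level of each gene (y axis, log2(FPKM + 1)) against the mean level of the marker list with which it correlated most (x axis, mean log2(FPKM + 1)), 1 point per cell over 59 cells. Aplp1 climbs along the oligodendrocyte list (rho = 0.78) and Cst3 along the microglia list (0.69), while the 5 cells without a microglia marker span 0 to 1952 FPKM for Apoe.

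Aplp1 tracked the myelin and oligodendrocyte genes more closely than any of the other 5 genes tracked a list. Its correlation with that list was 0.78, the 25th highest of 8042 genes including the list's own members, and all 11 markers correlated with it, at 0.40 to 0.79. Cldn11 (a tight junction protein of myelin) at 0.79, Mag (myelin-associated glycoprotein) at 0.77 and Mal (a myelin proteolipid) at 0.76 were its 3 nearest genes, followed by Syt11 (a synaptotagmin) and Prr5l at 0.75 each. In the 16 cells with all 11 oligodendrocyte markers, Aplp1 ranged from 36.9 to 3723 FPKM with a median of 915. In the 7 cells with 3 or fewer (cells 20, 36, 39, 46, 54, 61 and 62), it read 0, 0, 327, 13.5, 24.4, 204 and 1.40 FPKM. These sets overlapped, and Aplp1 was not confined to cells rich in myelin transcripts. The 2 cells of those 7 with the most Aplp1, cells 39 and 61, had 20 and 17 neuronal markers detected. The 2 sets also differed in genes detected, at 1479 to 10310 with all 11 markers and 1074 to 6168 with 3 or fewer. Aplp1 rose with the number of genes detected (rho = 0.31). Given that number, its correlation with the oligodendrocyte list was 0.76.

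App followed the same list less closely. Its correlation was 0.47 with the oligodendrocyte list (95.2nd percentile), 0.10 with the neuronal, -0.11 with the astrocyte and -0.16 with the microglia list. The last of these was lower than in all but 16 of 8042 genes, and was -0.35 (percentile 1.57) given the number of genes detected. The myelin genes Mog and Ugt8a (both 0.56) were its closest markers, and Mobp was the furthest at 0.24. Its nearest genes were Abca2 (a lipid transporter, 0.69), Acot7 (an acyl-CoA thioesterase, 0.57), Sept8 (a septin, 0.57), Grb14 (0.57) and Kif1a (an axonal transport motor, 0.57). With all 21 neuronal markers detected, in 17 cells, App ranged from 70.7 to 712 FPKM with a median of 227, so it was present in every one of them. With all 11 oligodendrocyte markers it ranged from 114 to 1303 FPKM with a median of 423. App was at 0 in cells 1 and 53 and at 0.530 FPKM in cell 52, which had 9, 8 and 10 of the 11 oligodendrocyte markers.

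The 2 family members varied together (rho = 0.56, range 0.54 to 0.64 when each cell was left out in turn), yet in unequal proportion. The log2 difference of App minus Aplp1 fell along the oligodendrocyte list (rho = -0.60) and showed little relation to the neuronal (0.17), astrocyte (0.01) or microglia list (-0.14). In cell 57, with all 11 oligodendrocyte markers and 9 neuronal ones, App read 1053 and Aplp1 3723 FPKM. In cell 11, with 5 oligodendrocyte and 19 neuronal markers, App read 465 and Aplp1 79.4 FPKM. In cell 13, with 7 and 21, they read 499 and 33.6 FPKM. Exceptions were cells 8, 26, 37 and 50, where App was the higher gene although all 11 oligodendrocyte markers were detected. In cell 26 App read 276 and Aplp1 36.9 FPKM. These single cells were chosen after their values were seen. Because Aplp1 enters both this difference and the correlations above, these values are not separate evidence.

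The start regions of App and Aplp1 are printed for the same reason as those of Apoe and Cst3, with the same build, span and capitals.
App, chr16:85173658-85173957, minus strand: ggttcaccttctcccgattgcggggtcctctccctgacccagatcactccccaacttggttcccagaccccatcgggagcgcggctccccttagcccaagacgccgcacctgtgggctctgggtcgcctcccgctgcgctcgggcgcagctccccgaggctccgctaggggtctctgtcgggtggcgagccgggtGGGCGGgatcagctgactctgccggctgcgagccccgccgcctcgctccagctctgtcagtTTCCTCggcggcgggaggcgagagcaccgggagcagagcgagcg
Aplp1, chr7:30445533-30445832, minus strand: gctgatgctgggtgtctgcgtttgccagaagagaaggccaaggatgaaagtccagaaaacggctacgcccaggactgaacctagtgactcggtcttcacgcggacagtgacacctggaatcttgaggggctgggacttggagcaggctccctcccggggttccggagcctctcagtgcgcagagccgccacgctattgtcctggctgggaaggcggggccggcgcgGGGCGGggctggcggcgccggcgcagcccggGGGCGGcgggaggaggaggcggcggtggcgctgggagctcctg
Both windows were richer in GC than those of Apoe and Cst3, at 71.0% for App and 68.7% for Aplp1, and their observed over expected CpG ratios were 0.80 and 0.77 against a median of 0.38 over all windows. The GC box was found 1 time for App and 2 times for Aplp1, the PU.1 core 1 time and 0 times, and the TATAAA box in neither. App lies on chromosome 16 (84949685 to 85173766) and Aplp1 on chromosome 7 (30434982 to 30445535), both on the minus strand. In the annotation 5 genes on the opposite strand overlap App, 1 of which, Gm49227, shares exonic bases with it. Since it is not stated whether strand was used in counting, reads there could not be told apart.

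**Figure D4:**
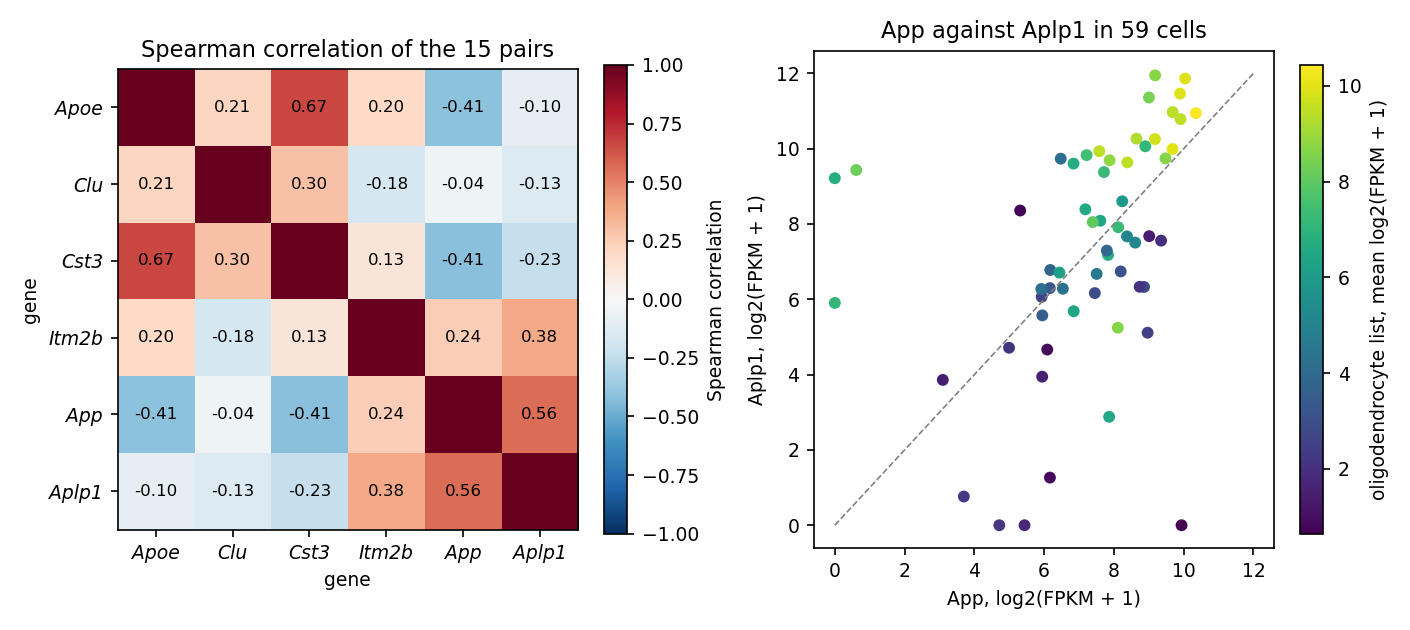
Left, Spearman correlation over 59 cells for the 15 pairs of the 6 genes; right, App (x axis) and Aplp1 (y axis) as log2(FPKM + 1) in each cell, coloured by the mean level of the oligodendrocyte list, with a dashed line of equal levels. The pairs Apoe with Cst3 (0.67) and App with Aplp1 (0.56) stand out, and cells with a high oligodendrocyte list lie mostly above the line, on the Aplp1 side.

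Itm2b combined relations to 2 glial lists. It correlated at 0.54 with the oligodendrocyte list (97.0th percentile) and 0.43 with the microglia list (percentile 94.2), and all 24 markers of both lists correlated with it, at 0.32 to 0.57. With the neuronal list it was -0.33 and with the astrocyte list -0.16, each lower than in all but 35 of 8042 genes. Both depended on the measure, at 0.02 and 0.10 by Pearson correlation and -0.62 and -0.36 in the 46 cells with at least 2000 genes. Given the number of genes detected they were -0.55 (percentile 0.47) and -0.33 (percentile 2.00). Among its nearest genes, Ctsb (cathepsin B) led at 0.82, the highest value of any gene with any of the 6, followed by Cd9 (a tetraspanin) at 0.76, B2m (beta-2 microglobulin, the light chain of MHC class I) at 0.74, Lamp1 (a lysosomal membrane protein) at 0.74 and the MHC class I gene H2-D1 at 0.72. In the 10 cells with all microglia markers Itm2b ranged from 636 to 2339 FPKM, and in the 16 cells with all oligodendrocyte markers from 346 to 2087 FPKM. In the 17 cells with all neuronal markers it ranged from 175 to 1294 FPKM, so no such cell lacked it. Itm2b lies on the minus strand of chromosome 14 (73362226 to 73385289) with no overlapping gene.

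Across the 15 pairs, 8 correlations were above 0. Both microglia-following genes went against App, with -0.41 for Apoe and -0.41 for Cst3. For Cst3, App was the gene with the lowest correlation of all 8041 others. Itm2b correlated at 0.38 with Aplp1, 0.24 with App, 0.20 with Apoe and 0.13 with Cst3. Clu was near 0 or below with Itm2b (-0.18), Aplp1 (-0.13) and App (-0.04), and reached 0.30 with Cst3.

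The share of summed gene FPKM taken by the ribosomal RNA gene Rn18s-rs5 moved with 3 of the genes. It ran from 2.19 to 82.9% of a cell's total, and correlated at -0.45 with Aplp1, -0.39 with App and -0.36 with Itm2b, against 0.04 with Apoe, 0.01 with Cst3 and 0.10 with Clu. The oligodendrocyte list moved with it in the same direction (rho = -0.38). After each cell was rescaled without this gene and mitochondrial genes, the correlation with the oligodendrocyte list was 0.75 for Aplp1, 0.44 for App and 0.55 for Itm2b. Before rescaling the values were 0.78, 0.47 and 0.54. Rescaling takes out only the part of Rn18s-rs5 in the total, and whether its share bears on these relations otherwise was not tested.

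Other genes of the amyloid pathway were less widely detected than App. Of the relatives, Itm2c was detected in 53 cells (median 99.4 FPKM), Aplp2 in 52 (83.9 FPKM) and Itm2a in 11. Unlike Aplp1, Aplp2 correlated at 0.10 with the oligodendrocyte and 0.39 with the neuronal list. Among 11 genes of precursor processing the median share of cells was 25.4%, and 2 reached 50%. Over all 20689 genes the median share was 11.9% and 11.7% reached 50%, which is also the background for the lists that follow. The 2 genes were Psenen, a gamma-secretase subunit, in 36 cells (43.8 FPKM) and Bace1, the beta-secretase, in 32 (2.25 FPKM). Adam10, the main alpha-secretase, was detected in 28 cells, Furin in 4 and Bace2 in 2. Psenen correlated at 0.45 with Itm2b, 0.48 with Aplp1 and 0.15 with App.

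Of 7 measured adaptor and sorting genes, 4 reached 50%. Apbb1, which binds the tail of the precursor, and Mapk8ip1 were detected in 43 cells each and Sorl1, a sorting receptor, in 34. The least detected were Apba3 in 9 cells and Apba1 and Apbb2 in 27 each. Apbb1 correlated at 0.55 and Sorl1 at 0.46 with App. Of 4 amyloid-degrading enzyme genes none reached 50%, with Ide in 27 cells, Ece1 in 18, Ece2 in 12 and Mme (neprilysin) in 4.

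Of 10 measured lipid transport genes other than Apoe and Clu, 2 reached 50% of cells. They were Apod (a lipocalin), present in 47 cells at a median of 119 FPKM, and Abcg1 (a sterol exporter) in 38, while the list had a median share of 18.6%. Apod correlated at 0.81 with the oligodendrocyte list, 0.65 with Aplp1 and 0.23 with Apoe. Abca1, the exporter that loads lipid onto Apoe particles, was detected in 18 cells and correlated at 0.47 with Apoe. Apoa1 was found in 1 cell and Apoa2 in 2. Among 7 measured receptor genes, Lrpap1 (a receptor chaperone) was found in 40 cells, Lrp1 in 23, Vldlr in 22 and Scarb1 in 4. Trem2, a microglial receptor that binds Apoe and Clu, was detected in 21 cells and correlated at 0.57 with Cst3, 0.33 with Apoe and 0.11 with Clu.

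Cystatin and cathepsin genes were more widely detected. Ctsb, a cysteine protease, and Ctsd, an aspartic protease of the lysosome, were detected in 53 cells each, at medians of 156 and 174 FPKM, and 5 of 8 cystatin and cathepsin genes reached 50%. Ctsd correlated at 0.61 with Cst3, Ctsz at 0.55 and Ctsb at 0.16, whereas Ctsb was the gene nearest to Itm2b. Cstb, an intracellular cystatin, was detected in 39 cells and correlated at 0.30 with Cst3, and Cst7 and Cst6 were found in 13 and 8 cells.

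Among 6 genes of other amyloid-forming proteins, Prnp (prion protein) was detected in 57 cells at 224 FPKM, B2m in 51 at 360 FPKM and Mapt (tau) in 50 at 43.5 FPKM. Mapt correlated at 0.45 with both App and the oligodendrocyte list and at 0.14 with the neuronal list. The actin-severing gene Gsn was detected in 31 cells (0.54 with Aplp1) and Ttr, the choroid plexus thyroxine carrier, in 25 (-0.15 with Apoe).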

How the data were processed

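Single-cell RNA-seq values for 59 cells were used as deposited. The authors deposited FPKM, 1 column per cell, made with STAR 2.5.3a and featureCounts 1.5.3 on GRCm38, per the submitters' processing notes. Annotation release, use of strand and handling of multi-mapping were not given in the sources used here. Columns were matched to cells by the cell number in the title, and 0 pairs of cells had identical values. The 51 ERCC spike-ins were left out of all gene counts.

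Depth was estimated with exon lengths from GENCODE M21 for 93.6% of genes, and a median of 73.3% of values up to 20 fragments came out whole within 0.02, so no count model was used. All values were kept as FPKM, with a pseudocount of 1 for log2.

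The 6 genes and the 16 gene lists (8 of cell types and 8 of pathways, 144 of 148 entries measured) were chosen with earlier results of these data known. Genes were named by rule: the 6 genes, the most and least detected members of each list, and the 5 nearest genes of each of the 6 by Spearman correlation, without mitochondrial genes. List members outside this rule, and single cells described by number, were named after their values were seen, as was the correlation of 0.4 used for background shares. The rule's other genes are given as counts, and some list members are not reported here. No test was run and no p-value computed, since there is 1 group. The calculations were tested on simulated data. Python 3.11.15, numpy 2.4.6, pandas 2.3.3 and scipy 1.17.1 were used.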

Additional observations from a re-analysis of the deposited data

How the results depend on the processing

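Alternatives were another detection threshold (any FPKM above 0, or 5), rescaled cells, pseudocounts of 0.1 and 10, list medians, Pearson correlation, correlation given the number of genes detected, no filter on low genes, and the 46 cells with at least 2000 genes. The 39 cells with at least 500000 estimated fragments, the cells in which the gene was detected, leaving out single cells, and rescaling for pairs were chosen after seeing the data. A value counted as moved outside its 95% interval (shares and medians), by more than 0.1 (correlations) or by more than 1 SD over genes (excess SD). Of 360 values for 57 results, 275 stayed within these limits. The sign changed in 16 of the 360, 14 of them correlations and 2 excess SDs (Cst3, 0.28 with a pseudocount of 10, and Aplp1, -0.066 with 0.1). None of the 14 was the correlation of a gene with its highest list. The list with the highest correlation was the same under all 10 alternatives for each gene except Itm2b, for which the microglia list led in the 39 deeper cells, where its oligodendrocyte correlation was 0.37. In the 46 cells with at least 2000 genes, a filter that itself selects on detection, Clu was detected in 87.0% and Cst3 and Itm2b in 100% of cells, and the microglia correlation was 0.62 for Apoe and 0.80 for Cst3. For Clu the astrocyte correlation was 0.49 given the number of genes detected, 0.72 in the 39 deeper cells and 0.47 in the 45 cells with Clu. App stood at 0.30 with the oligodendrocyte list by Pearson's measure. In the deeper cells Apoe with Cst3 was 0.57 and Cst3 with App -0.55. The cause of these moves was not tested. Rescaling raised the medians (Apoe 2663, or 4919 without Rn18s-rs5 and mitochondrial genes), which follows from its construction. Zeros were seen across depths, from 29042 estimated fragments (Cst3 and Aplp1 in cell 20) to 2538063 (Clu in cell 60), and the part of depth in them was not tested. No paired analysis was possible because the labels give 1 group.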

Other observations

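Cell 62 stood apart for these genes. Apoe, Clu, Cst3, Itm2b and Aplp1 read 0.847, 0.488, 1.32, 1.89 and 1.40 FPKM in it, while App read 70.8 FPKM, at 596160 estimated fragments and 1074 genes detected. Its 6 genes together held 0.0164% of the summed gene FPKM, the lowest share of the 59 cells. It had 9 of 21 neuronal, 2 of 13 microglia, 1 of 16 astrocyte and 1 of 11 oligodendrocyte markers detected, and 3 of 8 choroid plexus and ependymal markers.

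Elavl3, a neuronal RNA-binding protein gene, was the 1 neuronal marker that correlated with Aplp1 beyond 0.4, at 0.50, while the median over the 21 neuronal markers was -0.08. It was also the 1 neuronal marker below 0 with Clu, at -0.09. Elavl3 itself correlated at 0.17 with the neuronal list, which contains it, and at 0.42 with the oligodendrocyte list. It was named after its values were seen.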
